A study of Mus musculus with 30 samples.

Results

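The forkhead genes encode transcription factors that share the winged-helix (forkhead) DNA-binding domain, and 39 autosomal members, named Foxa1 to Foxs1, were examined among 20665 autosomal protein-coding genes. A peak was assigned to a member when it lay in the gene body or within 10 kb of it on the mm10 build, with bodies taken from the RefSeq annotation of GRCm38.p6. Of 1352462 peak entries in 30 libraries, 2741 met this rule. Members were split by general knowledge of their expression, and not from these data, into 28 tissue-restricted and 11 broadly expressed genes. The broadly expressed members were Foxj2, Foxj3, Foxk1, Foxk2, Foxm1, Foxn2, Foxn3, Foxo1, Foxo3, Foxp1 and Foxp4. Of these, Foxm1, Foxo1, Foxp1 and Foxp4 have mixed patterns of expression, so their class is less certain.

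CTCF and RAD21 were mapped by ChIPmentation, a chromatin immunoprecipitation in which Tn5 transposase inserts the sequencing adapters on the beads. The chromatin came from the trunk, taken from below the post-occipital region, of B6CBAF1 mouse embryos at E10.5. Embryos of trans-heterozygous crosses were dissociated one at a time, and were either homozygous for a mutant allele or wild-type (WT) control littermates. The 6 mutant alleles alter CTCF binding sites of the Hoxd cluster on chromosome 2, 1 site or several together, so at forkhead genes they were compared away from the mutated sequences. WT had 3 CTCF and 4 RAD21 libraries, Del(CBS1) had 3 of each, Del(CBS1-2) had 1 and 2, and Del(CBS2) had 1 of each. The alleles Del(CBS1-3), Del(CBS1-4) and Del(CBS1-5) had 2 of each. Trunk chromatin mixes many cell types, so a site in few cells and a weak site in all cells cannot be told apart.

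CTCF is a zinc-finger protein that halts the cohesin ring at many chromatin loop anchors, and RAD21 is the subunit that closes that ring. Forkhead factors include pioneer proteins of the endoderm (the Foxa genes), regulators of mesoderm and vessels (Foxc and Foxf), of neural crest (Foxd3), and mediators of insulin and growth-factor signalling (the Foxo genes). Several of the tissue-restricted genes lie next to another forkhead gene, and CTCF sites are known in general to partition the regulatory regions of neighbouring genes.

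The authors deposited 1 peak list per library, called for that library alone, with 40011 to 88323 entries for CTCF and 16676 to 48102 for RAD21. Read depth was unknown, so the length of a list describes how much was called and not how deeply the library was sequenced. Reference sites were made by linking WT summits within 150 bp of each other and keeping those whose median position was covered by a peak in all WT libraries, which gave 47683 CTCF and 20103 RAD21 sites. The strength of a site in a library is given as the percentile of the authors' fold enrichment among the 30992 CTCF or 12947 RAD21 sites that had a peak in every library, and is 0 where the library had no peak. Positions are summits on mm10, counted from 1.

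Among the 25 forkhead genes with an annotated start, Foxa3 and Foxd2 had a CTCF site within the promoter sequence. The share of all promoters with such a site was not counted. The sequences are shown because they place the summit beside the start. Foxa3, a Foxa gene expressed in liver and gut endoderm, had a CTCF summit at chromosome 7, position 19023606, which lies 67 bp upstream of the annotated start. The Foxd2 promoter held a CTCF summit at chromosome 4, position 114909041, 143 bp upstream of the start, with a RAD21 summit at 114909040. The 250 bases before each start (RefSeq, GRCm38.p6, the same coordinates as mm10) are printed 5′ to 3′ on the gene's own, minus strand, at chr7:19023540-19023789 and chr4:114908899-114909148. Capitals mark AGGGGGC, part of the known CTCF consensus, on either strand.
Foxa3: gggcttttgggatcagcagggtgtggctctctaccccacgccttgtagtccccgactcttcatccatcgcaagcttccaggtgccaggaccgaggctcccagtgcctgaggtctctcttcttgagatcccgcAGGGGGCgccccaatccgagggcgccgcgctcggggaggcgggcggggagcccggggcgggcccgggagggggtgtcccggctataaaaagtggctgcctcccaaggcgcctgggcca
Foxd2: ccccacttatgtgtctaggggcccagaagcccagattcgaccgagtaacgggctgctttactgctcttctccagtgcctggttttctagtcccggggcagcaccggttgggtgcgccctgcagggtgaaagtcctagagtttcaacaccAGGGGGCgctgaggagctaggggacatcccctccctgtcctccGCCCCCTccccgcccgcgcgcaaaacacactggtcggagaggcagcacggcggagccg
In Foxa3 the match began 118 bases before the start and its nearer end lay 45 bases from the CTCF summit. The Foxd2 promoter held 1 match on the gene's strand, 42 bases from the CTCF summit, and 1 on the opposite strand, 85 bases away. Over 32851 promoters, searched on both strands in the same 250 bases, AGGGGGC occurred in 9.43%, and in 8 of 29 promoters of forkhead genes. A match describes the letters only. The Foxa3 promoter site was weak (percentiles 2.96, 9.78 and 2.32 in the WT libraries) and was found in 8 of 11 mutant libraries. At the Foxd2 promoter the CTCF percentiles were 22.2, 37.3 and 15.2 in WT, and all 11 mutant libraries had a peak.

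Nearly every forkhead gene had a CTCF site close by. A CTCF reference site lay within 10 kb of 36 of 39 members, beside a background of 72.9% of protein-coding genes. The tissue-restricted class had a site at 27 of 28 genes and the broadly expressed class at 9 of 11. Foxd4, Foxk2 (a broadly expressed repressor) and Foxo3 (an effector of insulin signalling) had none. The numbers of sites ran from 0 to 5 at the members with bodies under 12 kb, 5 of them at Foxd2, and reached 11 at Foxp1 and 10 at Foxp2, which have bodies of 597405 and 540629 bp.

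RAD21 sites were present near 25 of 39 members, beside a background of 49.2%. They stood at 19 of 28 tissue-restricted and 6 of 11 broadly expressed genes. The 14 members without a RAD21 site were Foxa1, Foxb1, Foxb2, Foxd4, Foxe1, Foxi3, Foxj1, Foxj2, Foxk2, Foxl2, Foxn2, Foxn3, Foxo3 and Foxo6. Among them, the Foxn3 window of 393587 bp held 4 CTCF sites, of mean WT percentile 4.49 to 30.6, and the nearest RAD21 site to any of these was 243512 bp away. RAD21 peaks of single libraries did cover the Foxn3 CTCF summit at 99393828, in 3 of 4 WT and 7 of 12 mutant libraries, and 2 others in 1 of 4 WT libraries each. A RAD21 reference site required all 4 WT libraries. At Foxa1, Foxj2 and Foxl2 a CTCF summit was covered in 3 of 4 WT libraries, at Foxi3 in 2, and at Foxj1 and Foxo6 in 1. At Foxb1, Foxb2, Foxe1 and Foxn2 none was covered in WT. Foxd2 and Foxp2 had 4 RAD21 sites each, the highest number. Among genes listed for comparison, CTCF sites stood near 15 of 18 Sox, 8 of 9 Pax, 13 of 13 FOXO-signalling (the insulin and PI3K pathway upstream of Foxo proteins) and 9 of 9 Hedgehog-pathway genes, and RAD21 sites near 13, 4, 10 and 8 of them.

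**Figure D1:**
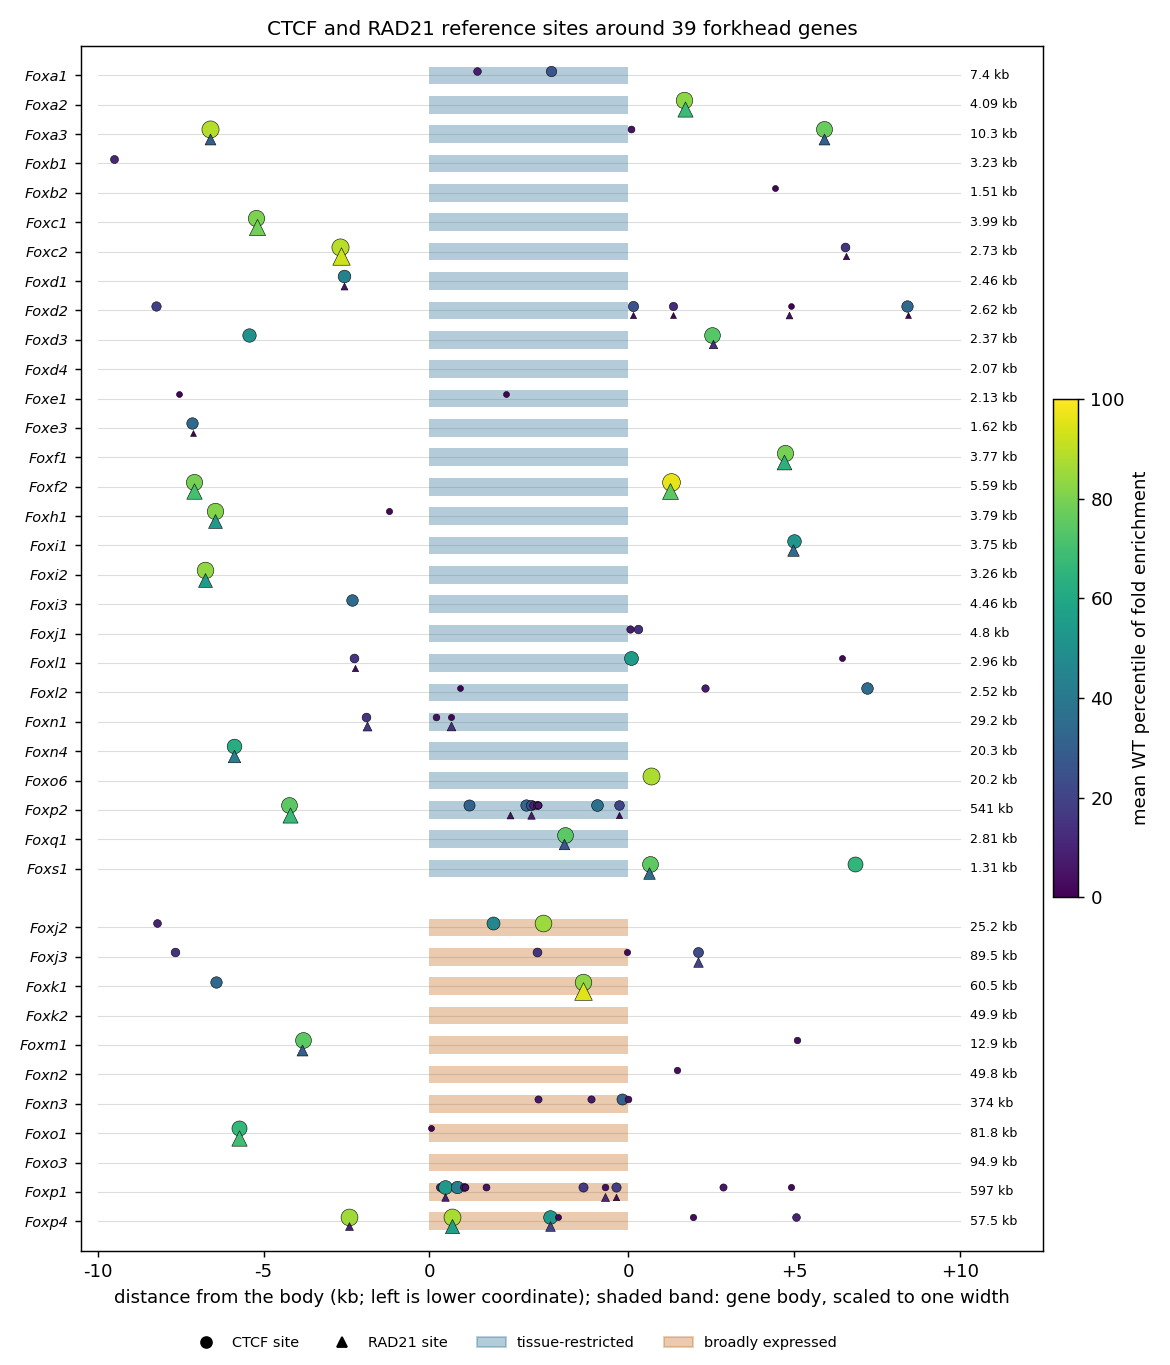
Each row is a forkhead gene and each symbol a CTCF (circle) or RAD21 (triangle) reference site, placed by its distance in kb from the gene body and coloured and sized by its mean WT percentile of fold enrichment; the shaded band is the body, scaled to 1 width, with its length at the right. Of the 24 members under 12 kb, 23 have a CTCF site, most of them in the flanks, whereas Foxk2 and Foxo3 have none over windows of 69.9 and 115 kb.

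By body length, the share of members with a site lay furthest above the background among short genes. All 24 members with a body under 12 kb were tissue-restricted, and 23 of them had a CTCF site, where 56.7% of protein-coding genes that short did. RAD21 sites stood at 16 of these 24, beside 33.3%. Among the 15 longer members, 13 had a CTCF and 9 a RAD21 site, where 83.7% and 59.8% of long protein-coding genes did, values close to each other. Per length, the short members carried 7.09 CTCF and 3.64 RAD21 sites per 100 kb of merged windows, and short protein-coding genes 4.04 and 1.64. The 4 long tissue-restricted members (Foxn1, Foxn4, Foxo6 and Foxp2) carried 2.17 CTCF sites per 100 kb, and the 11 broadly expressed members 2.04. For RAD21 these values were 1.01 and 0.584. The boundary of 12 kb was chosen after the data were seen.

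Peak density, counted in every library without a reference, gave the same order of the classes. In the 3 WT CTCF libraries the tissue-restricted members held 4.44, 5.16 and 6.21 peak intervals per 100 kb and the broadly expressed members 2.57, 2.74 and 4.44. The means were 5.27 ± 0.89 and 3.25 ± 1.03 (SD, n = 3), with 3.29 ± 0.59 around all protein-coding genes, and the difference within a library was 2.02 ± 0.35. In the 4 WT RAD21 libraries the tissue-restricted members held 2.34, 3.23, 2.98 and 3.31 and the broadly expressed members 0.584, 2.57, 1.87 and 1.98 intervals per 100 kb. Their difference was 1.21 ± 0.46 (SD, n = 4), and protein-coding genes lay at 1.72 ± 0.40. The density of the tissue-restricted class was higher in 14 of 14 CTCF and 16 of 16 RAD21 libraries. These libraries share the same genes and windows, so the count describes the libraries and is no test of the classes. No broadly expressed member is under 12 kb, so among short genes the classes cannot be compared, and in these pooled densities class and body length are mixed. Among members of at least 12 kb, reference sites per 100 kb were 2.17 (tissue-restricted) and 2.04 (broadly expressed) for CTCF. For RAD21 they were 1.01 and 0.584. That comparison rests on 4 tissue-restricted genes.

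**Figure D2:**
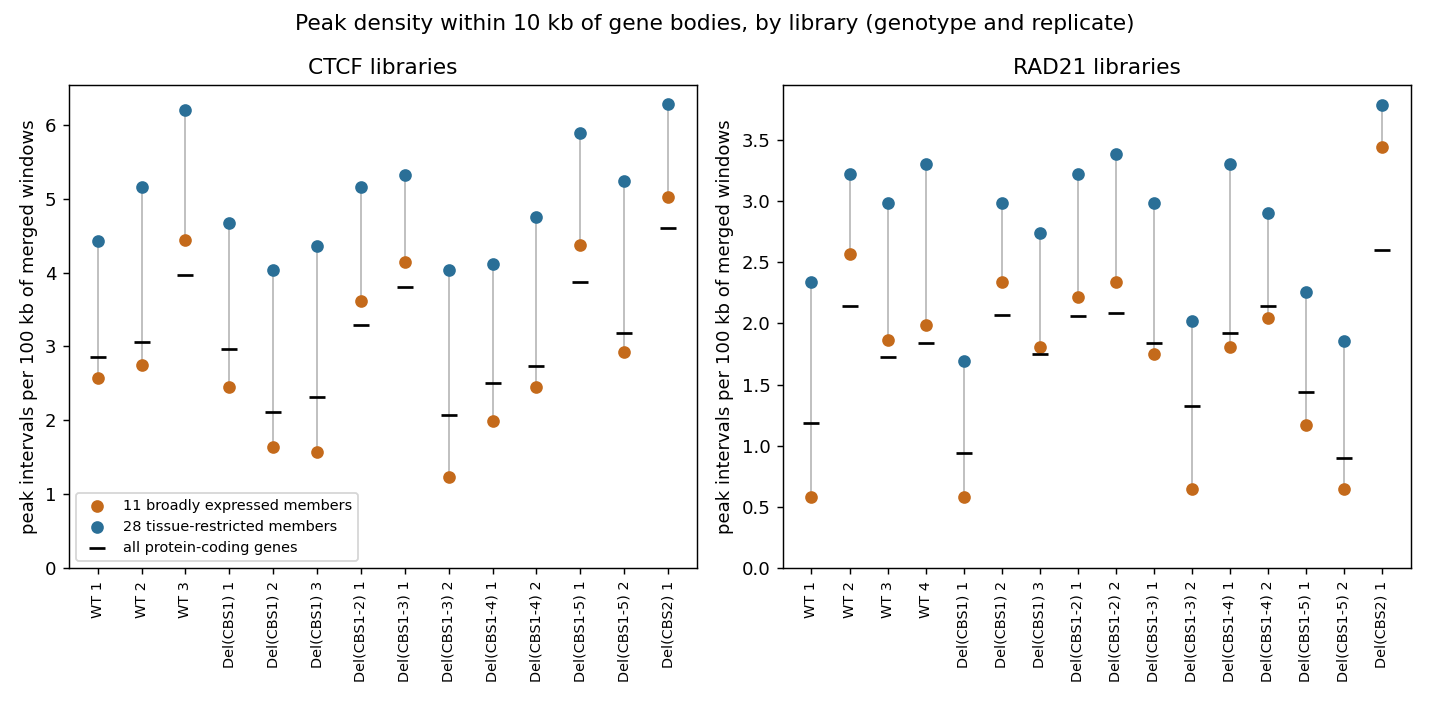
Points give peak intervals per 100 kb of merged windows (vertical axis) in each library (horizontal axis, genotype and replicate) for the 28 tissue-restricted and the 11 broadly expressed forkhead genes, with all protein-coding genes as dashes. The tissue-restricted genes are the higher in every library, and the broadly expressed genes lie between 1.23 and 5.02 over the CTCF lists.

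The counts at broadly expressed members moved more with the length of the list. They ran from 21 to 86 intervals over the 14 CTCF lists, and those at tissue-restricted members from 50 to 78. Over the 11 mutant CTCF libraries the within-library difference was 2.04 ± 0.58 and over the 12 mutant RAD21 libraries 1.03 ± 0.31 (SD), values that overlap those of WT. The class difference was reduced where body and flank were looked at apart. In the bodies alone it was 0.984 ± 0.375 for CTCF and 0.16 ± 0.28 for RAD21, and in the 10 kb flanks alone 0.775 ± 0.636 and 0.847 ± 1.578 intervals per 100 kb. In the flanks the tissue-restricted genes were the higher in 13 of 14 CTCF and 13 of 16 RAD21 libraries. In the bodies they were the higher in 14 of 14 CTCF libraries but in 6 of 16 RAD21 libraries, and around starts in 13 of 14 and 6 of 16, so for RAD21 the order was the opposite in most libraries in both of these windows. Flanks make up most of the window of a short gene and little of that of a long gene, and peaks were denser in flanks than in bodies in both classes (8.05 against 3.64 CTCF intervals per 100 kb at tissue-restricted genes, 7.27 against 2.66 at broadly expressed genes).

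**Figure D3:**
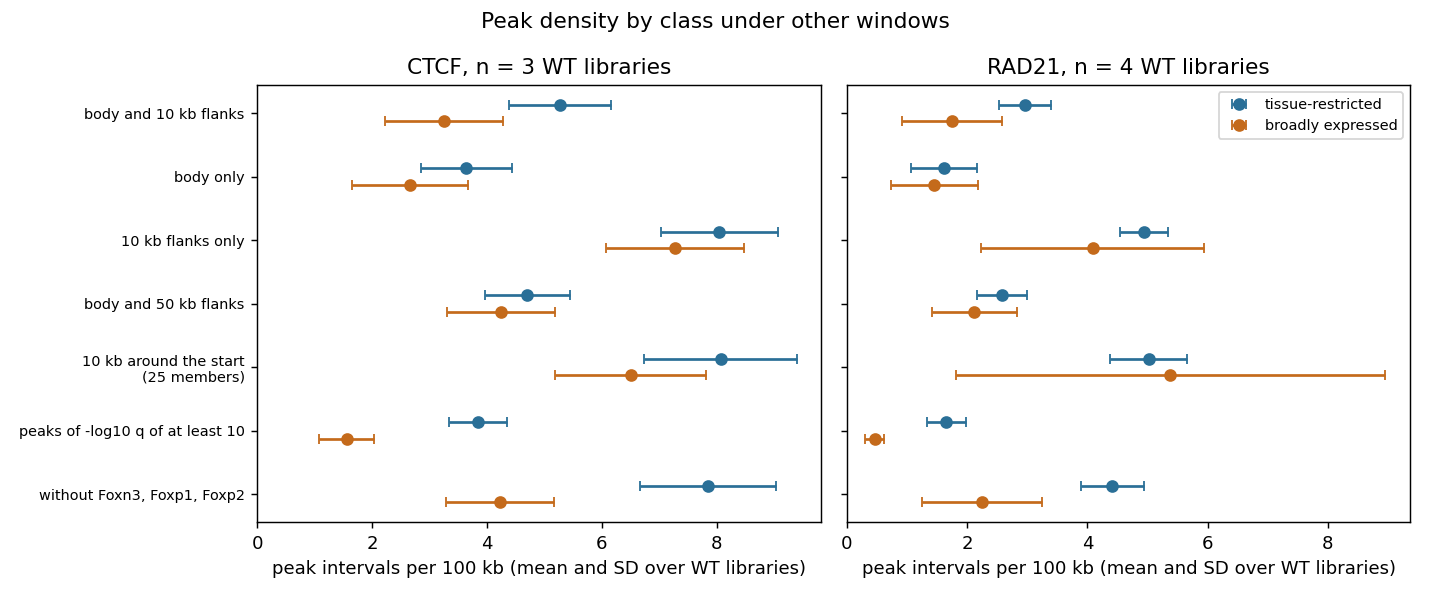
Mean and SD over WT libraries of the peak intervals per 100 kb (horizontal axis) at tissue-restricted and broadly expressed forkhead genes, in each of 7 ways of counting (vertical axis). The classes lie 2.02 apart for CTCF in the main window and 0.775 apart in the flanks alone, and for RAD21 around the start (25 members with an annotated start) the order is reversed, by -0.355 ± 2.934.

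The CTCF site of highest rank in the family lay 1278 bp beyond Foxf2, a gene of the mesenchyme of gut and face, at chromosome 13, position 31632684. It had percentiles of 92.7, 98.1 and 98.0 in WT, and 87.0 at the lowest, 97.1 at the median and 99.6 at the highest of the 11 mutant libraries. Its mean fold enrichment in WT was 17.5 ± 1.3 (SD, n = 3). The RAD21 site there ranked at 93.0, 64.4, 82.7 and 59.6 in WT.

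At Foxc2, a regulator of lymphatic vessels and somites, both proteins ranked high at 1 place, 2693 bp from the body on its lower-coordinate side, at chromosome 8, position 121113478. CTCF percentiles were 86.2, 90.5 and 91.3 in WT and 84.0, 93.6 and 97.1 (lowest, median, highest) in mutants. RAD21 percentiles were 97.1, 90.8, 97.4 and 85.0 in WT and 70.7, 91.0 and 98.5 in mutants. It was the strongest RAD21 site of the tissue-restricted class.

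Foxa3 had its strong sites away from its promoter. The first, at chromosome 7, position 19006671 in the span of Irf2bp1, ranked at 86.8, 95.9 and 84.2 in WT for CTCF and at 22.2, 7.86, 39.4 and 48.8 for RAD21. The other, at 19029450 in the span of Sympk, ranked at 85.4, 77.7 and 67.5 for CTCF and at 57.5, 13.9, 17.4 and 30.5 for RAD21. So at both of these sites the WT percentiles of CTCF lay above those of RAD21. Each percentile is taken among the sites of its own antibody, and these sets differ in size. Foxa2, which acts in the notochord, floor plate and endoderm, had 1 CTCF site, 1682 bp upstream of its start, at 89.6, 84.5 and 73.9, and RAD21 there at 81.0, 77.3, 54.1 and 58.2.

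Foxo6, a Foxo gene of the brain, had a strong CTCF site with little RAD21. The CTCF summit 691 bp from the body on its higher-coordinate side, at chromosome 4, position 120287952, ranked at 94.0, 94.1 and 74.7 in WT and from 72.8 to 97.6 in mutants, with a peak in every library. A RAD21 peak covered it in 1 of 4 WT and 3 of 12 mutant libraries, and the nearest RAD21 reference site was 35452 bp away. Among all CTCF sites with a mean WT percentile of 75 or more, 90.9% had a RAD21 reference site within 150 bp. Of the 16 forkhead sites in that range 14 did, and the other one without was in Foxj2, where RAD21 peaks covered the CTCF summit in 3 of 4 WT and 8 of 12 mutant libraries.

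Among broadly expressed members the best CTCF sites belonged to Foxp4, Foxj2, Foxk1 and Foxm1, with mean WT percentiles of 86.9, 84.8, 82.8 and 74.8. In Foxp4, a regulator of lung epithelium, the site at chromosome 17, position 47873659 ranked at 91.3, 85.7 and 83.5 in WT, and at 53.3, 79.8 and 94.8 (lowest, median, highest) in mutants. Its lowest values were the 2 Del(CBS1-4) libraries, 53.3 and 61.6, and 5 other mutant libraries also lay below all 3 WT libraries. A flanking Foxp4 site at 47864698 ranked at 84.3, 93.0 and 79.8 for CTCF, and at 1.96, 6.66, 21.3 and 10.7 for RAD21 in WT. In Foxj2, position 122834588 ranked at 92.1, 86.9 and 75.3. Foxm1, a driver of mitotic genes, had its best site 3815 bp from the body in the span of Rhno1, at 72.9, 72.9 and 78.6.

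Foxk1, a repressor expressed in muscle precursors and many other tissues, held the strongest RAD21 site of the family. At chromosome 5, position 142448340 in the body, RAD21 percentiles were 93.5, 92.9, 94.8 and 98.9 in WT. In mutants they were 70.5 at the lowest, 93.8 at the median and 99.6 at the highest, and the Del(CBS1-4) libraries, at 70.5 and 76.3, were the only ones more than 5 points below all WT libraries at this site. CTCF ranked there at 83.9, 86.3 and 78.3. Next among broadly expressed genes came Foxo1, with RAD21 at 70.5, 61.8, 71.9 and 73.4 at a site 5729 bp before its body, Foxp4 with 58.5, 50.3, 68.6 and 50.8, and Foxm1 with 15.9 to 43.6. In the tissue-restricted class Foxc1, the partner of Foxc2 in vessels and somites, followed Foxc2 and stood above Foxf2, with RAD21 at 87.5, 74.8, 88.7 and 62.8. The ranges of Foxc1, Foxf2 and Foxa2 overlapped. Low Del(CBS1-4) values were not particular to Foxk1 and Foxp4. This allele also had the lowest mean of the 6 for RAD21 at Foxc2 (78.5, WT 92.6) and for CTCF at the Foxh1 site 76661375 (44.7, WT 81.4). It had the highest for CTCF at Foxo6 (95.2, WT 87.6) and for RAD21 at the Foxp2 site 14897156 (91.5, WT 67.3). Whether the Del(CBS1-4) libraries differ as a whole was not tested.

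**Figure D4:**
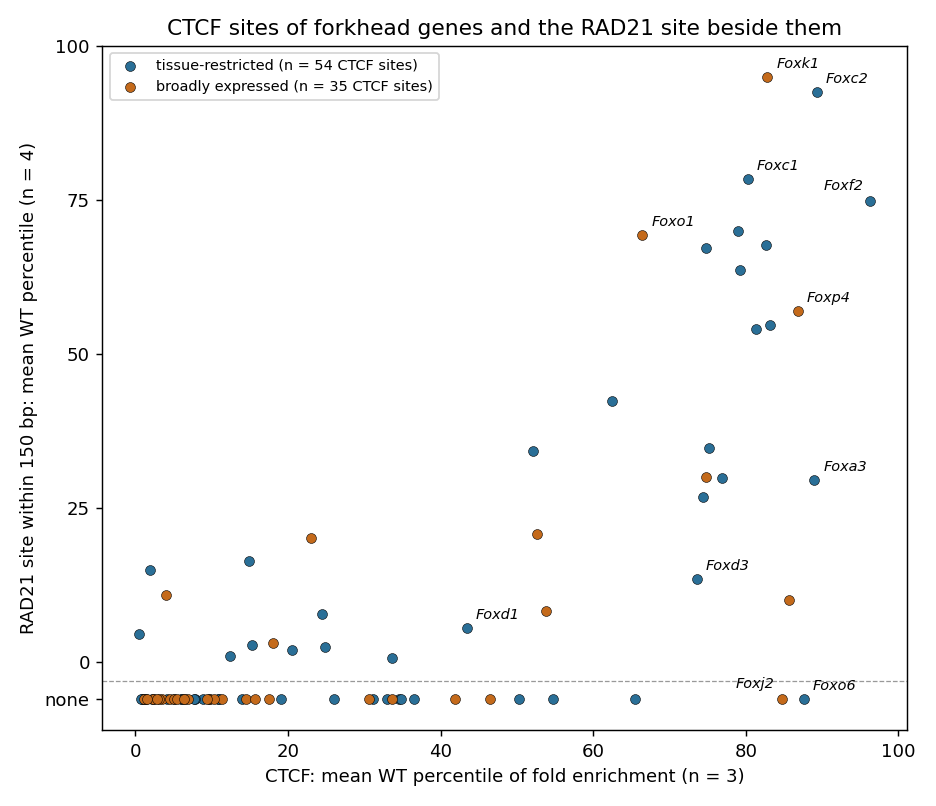
Each point is a CTCF site of a forkhead gene, by its mean WT percentile of CTCF fold enrichment (horizontal axis, n = 3) and that of the RAD21 site within 150 bp (vertical axis, n = 4), with sites that have no RAD21 reference site on the lowest line. Foxk1 and Foxc2 rank high for both proteins. Foxa3, like the flanking site of Foxp4, is high for CTCF and lower for RAD21. Foxo6 and Foxj2 have strong CTCF sites without a RAD21 reference site.

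RAD21 accompanied CTCF at 36 of the 89 distinct CTCF sites (40.4%), beside 41.2% of all CTCF reference sites. The share was 26 of 54 at tissue-restricted members (48.1%, 95% Wilson interval 35.4% to 61.1%) and 10 of 35 at broadly expressed members (28.6%, 16.3% to 45.1%). These intervals overlap and cover counting error only. They treat sites as independent, although Foxp2 held 10 of the 54 and Foxp1 11 of the 35, so they are no test of the classes. The classes also differed in strength: the median WT percentile was 28.5 at tissue-restricted, 11.3 at broadly expressed and 27.9 over all sites. Below the 25th percentile 8 of 26 tissue-restricted and 3 of 23 broadly expressed sites had RAD21, where 12.6% of all sites did. From 25 to 50 the counts were 2 of 8 and 0 of 4, where 43.2% did, and from 50 to 75 they were 5 of 8 and 4 of 4, where 73.5% did. At 75 or more they were 11 of 12 and 3 of 4. So the class with the higher share was not the same in every range. In the other direction, 36 of 37 RAD21 sites lay on a CTCF site, beside 97.8% of all RAD21 sites. The exception was inside Foxp2, a gene of brain circuits for vocal learning, at position 15121156, 42725 bp from the nearest CTCF site and at a mean percentile of 5.05 ± 4.43 (SD, n = 4).

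Neighbouring members were compared as clusters. On chromosome 13, Foxq1, Foxf2 and Foxc1 lie 64.8 and 175 kb apart, and the 272 kb around them held 10 CTCF and 8 RAD21 sites. The site in the body of Foxq1, a gene of hair differentiation, ranked at 83.0, 71.8 and 68.6 for CTCF, and the Foxc1 site 5236 bp before the body at 72.3, 85.6 and 82.8. Thus each of the 3 genes had a CTCF site with a mean WT percentile above 74 close by. On chromosome 8, Foxf1, Foxc2 and Foxl1 shared 66.3 kb with 6 CTCF and 4 RAD21 sites. The site of Foxf1, which patterns splanchnic mesoderm, lay in the span of Mthfsd and ranked at 90.2, 82.8 and 64.8. Between Foxc2 and Foxl1, a gene of gut mesenchyme, 1 weak site at 121125423 belonged to both windows (5.95, 23.2 and 16.9), and Foxl1 had another, 70 bp from its body, at 69.7, 59.6 and 34.8 with no RAD21 peak over it in any library.

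Foxd2 and Foxe3, a gene of the lens, were neighbours on chromosome 4, and their 39.8 kb held 5 CTCF and 4 RAD21 sites, the densest of the 3 clusters. Of the 5 CTCF sites 4 had mean WT percentiles of 0.467 to 24.9, below the median of all sites, and the one at 114917286 had 33.7. The 4 RAD21 sites had 0.708 to 4.65. The site at 114917286 belonged to the windows of both genes.

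Starts were annotated for 25 members (17 tissue-restricted and 8 broadly expressed). Within 1 kb of a start, CTCF sites stood at 5 of 25 members, beside 18.8% of protein-coding genes, and RAD21 sites at 1 of 25 (Foxd2), beside 6.68%. Besides Foxa3 and Foxd2 these were Foxa1 (953 bp downstream, 27.5, 36.8 and 13.7), Foxl2, a gene of the ovary (383 bp downstream, 0.206, 0.794 and 1.24), and Foxo1 (552 bp downstream, 1.27, 0.694 and 1.46). All 5 were below the 40th percentile in every WT library. Within 10 kb of a start the counts were 14 of 17 tissue-restricted and 5 of 8 broadly expressed for CTCF, beside 54.1%, and 10 of 17 and 1 of 8 for RAD21, beside 26.6%.

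None of the forkhead sites that could be fitted changed its rank past the threshold in the 3 comparisons made, which were the mutant alleles together, Del(CBS1) and Del(CBS1-5). Changes were fitted with limma over all sites with a peak in every library, on normal scores of the ranks, with a Benjamini-Hochberg adjusted p of 0.05. The fit held 58 of 89 forkhead CTCF sites and 25 of 37 RAD21 sites, and the other alleles had no comparison of their own. None of the 58 CTCF sites was called, beside 0% of 30992 sites in each of the 3 comparisons. At an unadjusted p under 0.05 the forkhead counts were 0, 2 and 1 of 58, beside 1.83%, 5.42% and 1.61%. Of the 25 RAD21 sites none was called in the same comparisons, beside 0%, 0% and 0.0309% of 12947 sites, and 0, 1 and 3 had an unadjusted p under 0.05, beside 2.8%, 5.17% and 9.6%. Over the 3 comparisons the fitted differences at forkhead sites ran from -1.23 to 0.67 (CTCF) and from -0.99 to 1.06 (RAD21) normal-score units. On simulated data the fit of all mutant alleles found 52% and 64% of shifts of 1 unit, and that of Del(CBS1-5) 10% and 4%. Most shifts of that size could thus be missed in Del(CBS1-5). The simulated noise was independent between sites and libraries, and alleles differed only by the planted shifts. The rates of the real fit may therefore differ.

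The smallest unadjusted p among forkhead sites belonged to the RAD21 site of Foxi1, a gene of the inner ear and kidney. Its percentiles were 32.9, 47.9, 33.3 and 23.3 in WT and 6.57 and 9.76 in Del(CBS1-5), with no overlap, a difference of -0.99 ± 0.36 (SE) normal-score units and a limma adjusted p of 0.351. In Foxn1, the regulator of thymic epithelium, a RAD21 site in the body had 8.04, 9.38, 24.1 and 18.4 in WT and 25.7 and 73.0 in Del(CBS1-5) (1.06 ± 0.40, limma adjusted p 0.383). Neither passed the threshold.

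Foxd1, which marks kidney stroma, had a CTCF site 2589 bp before its body that varied between libraries of 1 genotype. Its percentiles were 65.0, 40.1 and 25.3 in WT, and 58.8, 1.43 and 1.17 in Del(CBS1). In the other mutant libraries it ranged from 26.8 to 64.2. The lists of the 2 low Del(CBS1) libraries were short, with 40667 and 44550 entries, but the shortest, 40011 entries in Del(CBS1-3), kept the site. The first WT and first Del(CBS1) lists had median folds of 8.61 and 8.30, and the others of these genotypes 5.73 to 5.94. Whether such differences between lists account for the spread at Foxd1 was not tested. The change in Del(CBS1) was -1.23 ± 0.57 with a limma adjusted p of 0.884. Without the first Del(CBS1) library it passed the threshold (limma adjusted p 0.0312), in a fit that called 13 sites in the genome. In that fit 11.5% of all sites had an unadjusted p under 0.05, beside 5.42% with all libraries.

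Foxh1, the partner of SMAD proteins in Nodal signalling, had a weak CTCF site in WT that was stronger in most mutant libraries, at chromosome 15, position 76666597 in the span of Kifc2. The WT percentiles were 0.263, 0.945 and 5.14. Del(CBS1) had 2.83, 0 and 0. The pair of Del(CBS1-3) libraries had 0.765 and 51.5. The Del(CBS1-4) libraries had 41.4 and 67.3, those of Del(CBS1-5) 27.2 and 30.2, that of Del(CBS2) 33.4 and that of Del(CBS1-2) 27.1. So 7 of 11 mutant libraries lay above all WT libraries by more than 20 points, and the others lay within or below the WT range. The share of all CTCF sites with such a separation was not counted, so these values describe 1 site only. The site had no peak in 2 Del(CBS1) libraries and so was not in the fit. Foxd1 and Foxh1 were chosen after their values were seen.

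**Figure D5:**
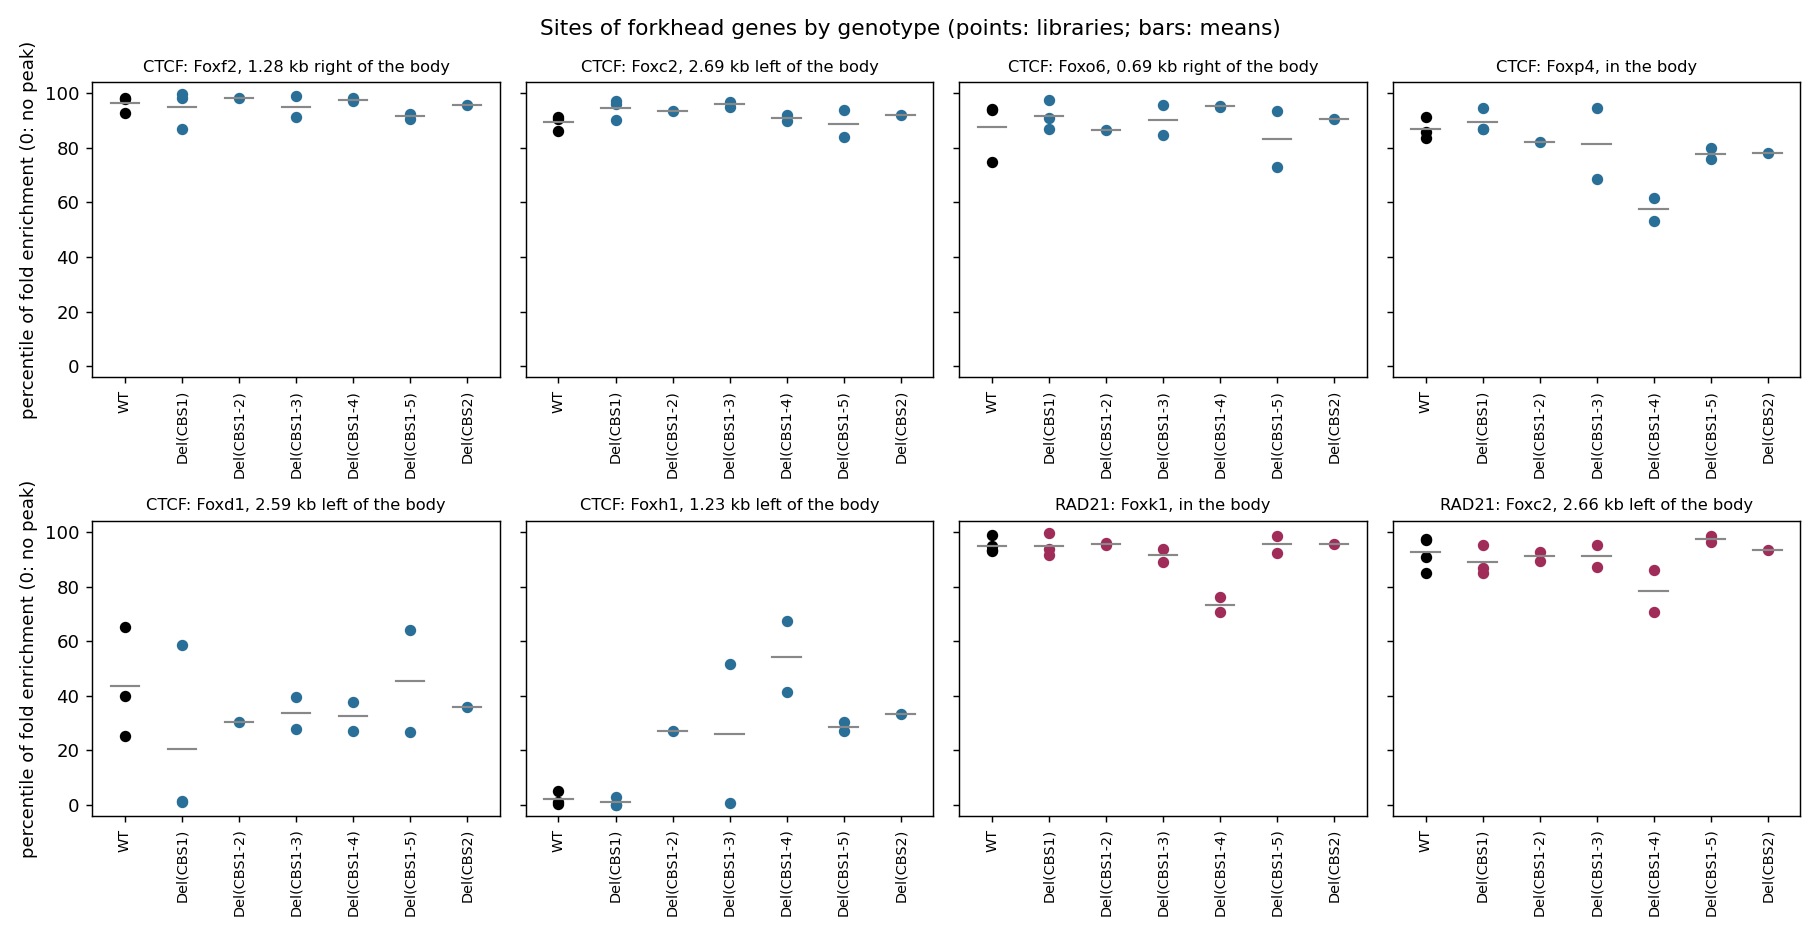
Percentile of fold enrichment (vertical axis, 0 where there was no peak) of 8 forkhead sites in every library by genotype (horizontal axis), with points for libraries and bars for means; the first 6 panels are CTCF and the last 2 RAD21. Foxf2, Foxc2 and Foxo6 stay above 70 in all libraries. Foxp4, Foxk1 and the RAD21 site of Foxc2 are lowest in Del(CBS1-4). At Foxd1 2 Del(CBS1) libraries are near 0, and at Foxh1 the WT libraries are at or below 5.14.

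Most forkhead sites were found again in the mutant libraries. Of the 89 CTCF sites 58 were found in every mutant library (65.2%, beside 65% of all sites), 39 of 54 at tissue-restricted and 19 of 35 at broadly expressed members. For RAD21, 25 of 37 were found in every mutant library (beside 64.4%). A mutant library detected 89.5 ± 10.7% of the CTCF sites (SD, n = 11), from 71.9% to 100%, and 92.8 ± 9.9% of the RAD21 sites (SD, n = 12), from 73.0% to 100%. The lowest CTCF value came from the shortest CTCF list and the lowest RAD21 value from the shortest RAD21 list.

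The sites missed most often were weak in WT. For CTCF, sites at Foxe1 (thyroid development), Foxo1, Foxb2, Foxp1 and Foxn3 were each found in 5 of 11 mutant libraries, and another at Foxe1 in 6. Their mean WT percentiles ran from 0.889 to 6.93. For RAD21, the Foxd1 site was found in 7 of 12 mutant libraries, sites of Foxp1, Foxp2 and Foxd3 in 8, and both Foxd2 sites nearest the start in 9. At Foxd3 the WT libraries themselves differed, with RAD21 percentiles of 39.2, 0.139, 1.26 and 13.7 beside a CTCF site at 75.9, 76.1 and 68.6.

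In Del(CBS1-5), the allele with the most mutated sites, no forkhead CTCF site was missing from both libraries, beside 0.443% of all 47683 sites. For RAD21, 4 of 37 forkhead sites were missing from both (Foxd1, Foxd2, Foxd3 and Foxp1), beside 4.28% of 20103 sites, and both Del(CBS1-5) RAD21 lists were short, with 26742 and 16676 entries. In the other direction, 3 of 117 CTCF sites of both Del(CBS1-5) libraries had no peak in WT (2 of them near Foxd4 and 1 in Foxp1), beside 1.41%, and for RAD21 0 of 30, beside 0.0765%. The part of list length in these counts was not tested.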

How the data were processed

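CTCF and RAD21 peak lists of 30 embryonic trunk libraries were used. The submitters' processing notes name mm10, cutadapt (1.16), Bowtie2 (2.3.5), SAMtools (1.9), bedtools (2.27.1), MACS2 (2.1.1.20160309) and Picard (2.19.0), and their options are not given in the sources used here. The authors deposited, for each peak, a display score, a fold enrichment (ratio), -log10 values of p and q, and a summit offset from the peak start. Each library has its own list, so only ranks within a list were compared, and entries that repeat 1 interval for several summits were counted once in densities.

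Windows, sites and percentiles are defined in the report. Exons and introns were not analysed here. RefSeq promoters matched 25 members. limma 3.58.1 in R 4.3.3 (robust, with trend) was fitted over all sites in every library of an antibody, with 1 coefficient per genotype or 1 for all mutant alleles; a genotype with a lone library took the spread of the rest. Labels describe individually dissociated embryos, and p-values measure the spread between these libraries. Figures were drawn with matplotlib 3.10.9, and tables handled with pandas 2.3.3 and scipy 1.17.1 under Python 3.11.15. The limma fit was tested on simulated data with 50 planted shifts per size.

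Sites named were, per antibody and class, the best sites of 4 genes, sites within 1 kb of a start, any called site and those in the fewest mutant libraries; members with and without sites were all listed, and other sites named (those of clusters, the smallest p, Foxd1, Foxd3 and Foxh1) were chosen after values were seen. The members, classes and gene lists were chosen with earlier results of these data known. Alternatives were the body alone, 50 kb, 10 kb around starts, peaks of -log10 q of at least 10, equal numbers of top peaks, sites in at least 2 WT libraries, a summit within 100 bp, RAD21 within 500 bp or over the summit in 2 WT libraries, ranks of -log10 p, centred log2 values of the deposited fold, no trend, the weakest 25% left out, a replicate block and leaving out libraries. The densities were also taken without the members of mixed pattern, Foxm1, Foxo1, Foxp1 and Foxp4. Flanks alone, leaving out Foxn3, Foxp1 and Foxp2, the split at 12 kb and detection without single libraries were chosen after seeing the data.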

Additional observations from a re-analysis of the deposited data

Results flagged for a closer look

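In 5 of 41 sets of 4 WT RAD21 values, 1 library stood apart from the other 3 by more than Dixon's 95% limit. For independent normal values that limit is passed in about 1 of 20 sets. Percentiles are bounded at 0 and the sets share the same 4 libraries, so this rate need not hold here. At the Foxd2 promoter the first WT library had a RAD21 percentile of 8.14 (the others 0.749, 0.147 and 0.718), and 1337 bp upstream of the Foxd2 start it had 3.72 (the others at or below 0.263). That library had the shortest WT list, 22449 entries, and forkhead peaks made up 0.177% of its intervals, where the other 3 had 0.220% to 0.223%. At Foxf1 the fourth WT library had 31.7 beside 72.4 to 75.9. At Foxj3 the second WT library had 37.9 beside 13.2 to 16.4.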

How the results depend on the processing

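The density difference between tissue-restricted and broadly expressed members, 2.02 intervals per 100 kb for CTCF, was 0.984 in bodies, 0.457 with 50 kb flanks, 1.57 around starts, 0.775 in flanks alone and 3.62 without Foxn3, Foxp1 and Foxp2. For RAD21, 1.21 became 0.16, 0.462, -0.355 (the order reversed, tissue-restricted members lower) and 2.17 under the same alternatives, flanks alone apart. The share of members with a CTCF site, 92.3%, was 33.3% in bodies, 100% within 50 kb and 76% around starts. The RAD21 share, 64.1%, was 15.4%, 97.4% and 44% in these windows, 82.1% with sites in at least 2 WT libraries and 41.0% at a -log10 q of at least 10. With sites in at least 2 WT libraries mutant libraries detected 78.4% of CTCF and 70.4% of RAD21 sites. Leaving out single libraries gave RAD21 detection of 82.2% (without WT replicate 1) to 94.6% (without the second Del(CBS1-5) library). A RAD21 peak over the summit in at least 2 WT libraries was present at 58.4% of CTCF sites.

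Over the genome, limma called 1 CTCF site in Del(CBS1) with ranks of -log10 p. Leaving out single libraries gave 0 to 13 calls there (13 without the first Del(CBS1) library, 1 of them at Foxd1), 0 to 1 for CTCF in Del(CBS1-5), and 0 to 1 for RAD21 in the mutant alleles together and in Del(CBS1). For RAD21 in Del(CBS1-5) the 4 calls became 14 with ranks of -log10 p, 8 with centred log2 fold, 1 without the weakest 25% and 0 to 156 without single libraries (156 without the first Del(CBS1-5) library). With a replicate block it was 0. Replicate numbers did not pair the libraries: same-numbered libraries had a mean correlation of deviations of 0.03 (CTCF) and -0.01 (RAD21). A further 151 values stayed within the spread between replicates or within 1.5 times the count. The causes of these changes were not tested. Read depth is unknown, so a missing peak in a short list cannot be told apart from a lost site.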
